A study of Mus musculus with 8 samples.

Results

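The genes described here encode the epithelial sodium channel and the corticosteroid response that controls it. They are Scnn1a, Scnn1b and Scnn1g for the channel, Nr3c2 and Nr3c1 for the corticosteroid receptors, Hsd11b2, Sgk1, Nedd4l, Prss8 and Tsc22d3. The 10 genes were taken by symbol from a table of 35976 genes. All 10 had enough reads to be tested, as did 18059 genes in all.

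The study measured RNA of whole mouse kidneys at postnatal day 3 in 8 libraries, 4 of each genotype and 2 of each genotype and sex. The mutants carried Slc12a3 Cre/+ with C1 YAP/+, and the controls carried Slc12a3 Cre/+ with C1 +/+, so the Cre allele was in both genotypes. They are called YAP and Ctrl here. The series names the mutants as having constitutive activation of Yap1, a transcriptional coactivator of the Hippo pathway, in segments of the distal nephron. The labels do not explain C1, and they do not say which cells recombined. Slc12a3 is the sodium chloride cotransporter gene of the distal convoluted tubule, while the RNA comes from all cells of the kidney. Replicate numbers 1 and 2 are from the labels, and whether each number is a separate animal is not stated. P-values therefore measure the spread between these libraries, which may be technical in part. The replicate 1 libraries held 78208330 to 87073093 reads and the replicate 2 libraries 22831578 to 25166286 reads.

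Sodium leaves the urine of the last nephron segments through a channel made of an alpha, a beta and a gamma subunit (Scnn1a, Scnn1b, Scnn1g). This happens in the late distal convoluted tubule, the connecting tubule and the principal cells of the collecting duct. Aldosterone binds the mineralocorticoid receptor (Nr3c2), and the enzyme Hsd11b2 inactivates glucocorticoids that would otherwise occupy it. The glucocorticoid receptor (Nr3c1) is found in most cells. The kinase Sgk1 restrains Nedd4l, a ubiquitin ligase that removes the channel from the membrane, and the membrane protease Prss8 (prostasin) activates the channel.

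Levels are given as scaled RPKM, which is the deposited RPKM (reads set against gene length and library total) divided by a library scaling factor. Log2 differences are YAP minus Ctrl of log2(scaled RPKM + 0.1), fitted with limma over all genes tested with sex as a covariate. An adjusted p under 0.05 (Benjamini-Hochberg over 18059 genes) is called past the threshold. Per-library values are listed as male replicate 1, male replicate 2, female replicate 1 and female replicate 2. Yap1 itself was at 34.6 to 36.5 scaled RPKM in YAP and 30.7 to 39.4 in Ctrl kidneys, so its level does not check the labels, and whether an activated allele is counted under this gene is not stated.

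Among the 10 genes the largest falls in YAP kidneys were in the aldosterone receptor gene and in the enzyme gene that keeps glucocorticoids from that receptor. Hsd11b2 fell 2.15-fold and Nr3c2 fell 1.90-fold. The beta subunit Scnn1b and the protease Prss8 fell less, by 1.33-fold and 1.34-fold. Scnn1a, Scnn1g, Nr3c1, Sgk1, Nedd4l and Tsc22d3 did not pass. In all, 4 of the 10 genes fell, 0 rose and 6 did not pass. Among all genes tested 26.2% passed in either direction, 13.0% lower and 13.2% higher in YAP kidneys. The same 4 genes had YAP and Ctrl libraries that did not overlap, as did 30.5% of all genes tested. The median log2 difference was -0.21 over the 10 genes and 0.01 over all genes tested. The 0 that rose is limma's count, and voom on the recovered reads called 1, Nedd4l.

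**Figure D1:**
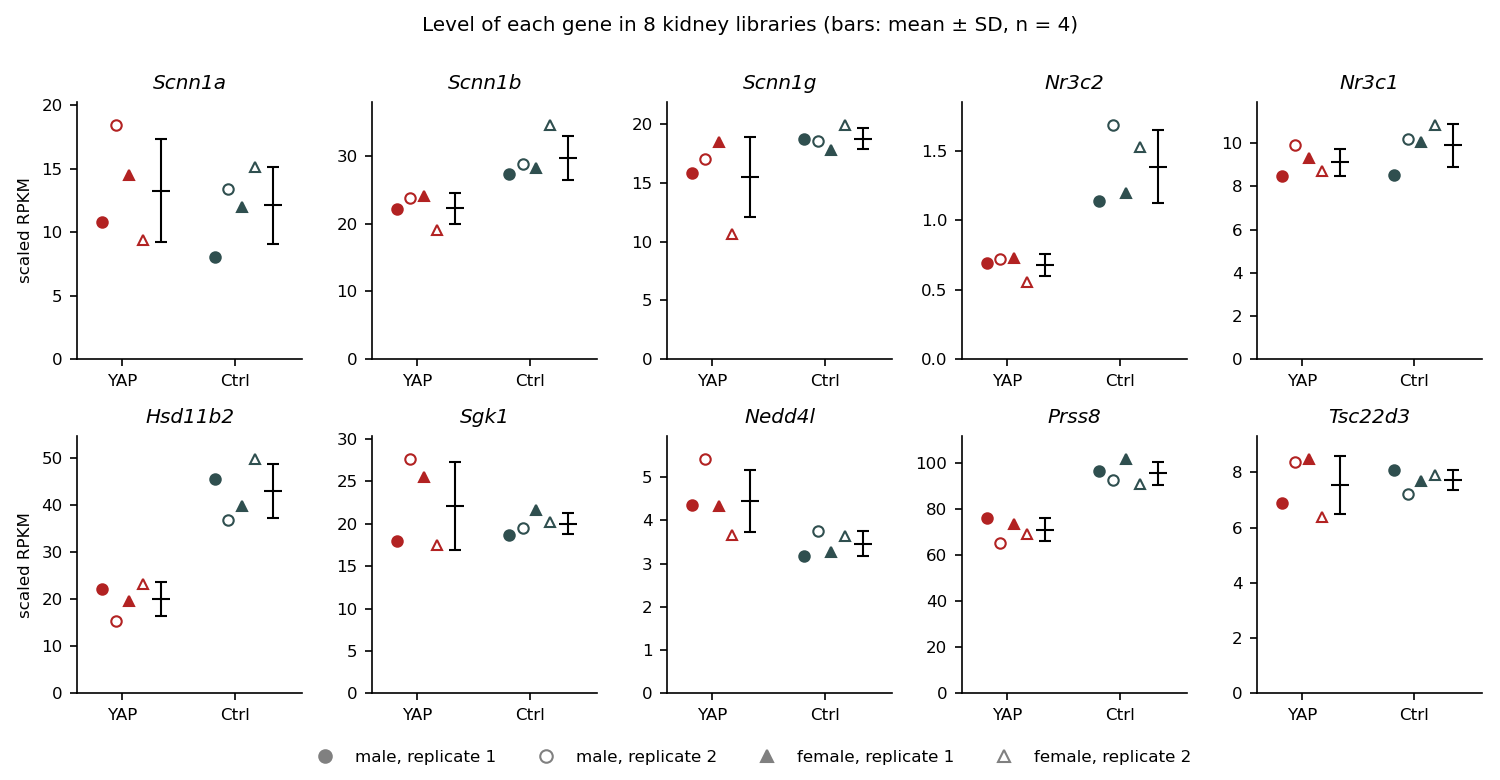
Scaled RPKM (y axes, from 0) of each gene in the 4 YAP and the 4 Ctrl libraries, with circles for males, triangles for females, filled symbols for replicate 1 and open symbols for replicate 2; bars are mean ± SD. Hsd11b2, Nr3c2, Scnn1b and Prss8 have every YAP library below every Ctrl library, and the other panels overlap.

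Hsd11b2 lies on chromosome 8 (105518746 to 105523988, GRCm38.p6, the assembly behind mm10). Its level was 22.1, 15.3, 19.6 and 23.4 scaled RPKM in YAP kidneys, against 45.5, 36.9, 39.9 and 49.8 in Ctrl kidneys. Every YAP library was below every Ctrl library, with a gap between 23.4 and 36.9. Means were 20.1 ± 3.56 in YAP and 43.0 ± 5.76 in Ctrl kidneys (SD, n = 4 each). The log2 difference was -1.10 ± 0.14 (SE). The fall had a 95% interval of 1.72-fold to 2.68-fold (limma, adjusted p = 0.000621). The log2 difference was -1.03 within the replicate 1 libraries and -1.18 within the replicate 2 libraries, and it passed within each. All genes that passed made up 19.7% within replicate 1 and 18.7% within replicate 2.

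Nr3c2, the mineralocorticoid receptor gene, lies on the same chromosome (76898083 to 77245012). Its level was the lowest of the 10 genes, at 0.695, 0.723, 0.727 and 0.558 scaled RPKM in YAP kidneys and 1.14, 1.69, 1.20 and 1.52 in Ctrl kidneys. The genotypes did not overlap. Few reads stand behind these values, 70 to 294 per YAP library and 176 to 463 per Ctrl library. The log2 difference was -0.93 with a standard error of 0.15 and a 95% interval of 1.49-fold to 2.43-fold lower (limma, adjusted p = 0.00258). Within the replicate 1 libraries it was -0.65 and within the replicate 2 libraries -1.21. An opposite-strand gene at the Nr3c2 locus, Gm10649, had at most 1 read in any library.

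The glucocorticoid receptor gene Nr3c1, on chromosome 18, stood at 8.46, 9.90, 9.32 and 8.73 scaled RPKM in YAP kidneys and at 8.52, 10.2, 10.04 and 10.8 in Ctrl kidneys. The genotypes overlapped over most of their range. The fitted ratio of YAP to Ctrl was 0.923 with a 95% interval of 0.798 to 1.07 (limma, adjusted p = 0.415). A fall as large as that of Nr3c2 lies outside this interval.

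The ratio of the receptor genes is set by both levels. Nr3c1 over Nr3c2 was 12.2, 13.7, 12.8 and 15.6 in YAP kidneys and 7.45, 6.03, 8.39 and 7.11 in Ctrl kidneys. Both levels are per length, and the libraries did not overlap. The ratio was 1.88-fold higher in YAP kidneys, with the smallest p that 4 libraries against 4 can give, and missed the threshold after adjustment (exact permutation test, two-sided, p = 0.0286, adjusted p = 0.0714 over 5 ratios). The ratio of Hsd11b2 to Nr3c2, both of which fell, was 31.9, 21.2, 26.97 and 41.8 in YAP kidneys and 39.9, 21.9, 33.4 and 32.7 in Ctrl kidneys. These ranges overlapped almost in full (exact permutation test, two-sided, p = 0.771, adjusted p = 0.771).

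Of the 3 channel subunits 1, Scnn1b, passed. Scnn1b and Scnn1g are neighbours on chromosome 7 (121865038 to 121918728 and 121734420 to 121768482), and Scnn1a lies on chromosome 6 (125314271 to 125344943). Scnn1b, the beta subunit, had 22.1, 23.8, 24.0 and 19.0 scaled RPKM in YAP kidneys, against 27.3, 28.8, 28.2 and 34.6 in Ctrl kidneys. Every YAP library was below every Ctrl library. The log2 difference was -0.42 with a standard error of 0.11 (limma, adjusted p = 0.0218). The call was lost without female YAP replicate 2 (adjusted p = 0.0502), male Ctrl replicate 2 (0.0532) or male YAP replicate 1 (0.0595), and within the replicate 1 libraries (log2 -0.27, adjusted p = 0.133).

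Scnn1g, the gamma subunit, had 15.9, 17.01, 18.5 and 10.6 scaled RPKM in YAP kidneys and 18.7, 18.6, 17.7 and 19.9 in Ctrl kidneys. Female YAP replicate 2 was far below the rest, and female YAP replicate 1 lay within the Ctrl range. The log2 difference was -0.30 ± 0.16 (SE), and the ratio of YAP to Ctrl had a 95% interval of 0.632 to 1.04 (limma, adjusted p = 0.208). Leaving out 1 library at a time gave differences between -0.44 and -0.12.

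Scnn1a, the alpha subunit, had the largest SD relative to its mean of the 3 subunits in both genotypes. It had 10.8, 18.5, 14.5 and 9.39 scaled RPKM in YAP kidneys and 8.04, 13.4, 12.0 and 15.1 in Ctrl kidneys, and the genotypes overlapped. The ratio of YAP to Ctrl was 1.085 with a 95% interval of 0.727 to 1.62 (limma, adjusted p = 0.783). The difference was 0.35 within the replicate 1 libraries and -0.11 within the replicate 2 libraries, so its sign differed between them.

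Set against each other within a library, beta over alpha was 2.05, 1.29, 1.66 and 2.02 in YAP kidneys and 3.40, 2.15, 2.35 and 2.28 in Ctrl kidneys. The ratio was 1.45-fold lower in YAP kidneys, the libraries did not overlap, and the adjusted p missed the threshold (exact permutation test, two-sided, p = 0.0286, adjusted p = 0.0714). Gamma over alpha averaged 1.20 ± 0.23 in YAP and 1.63 ± 0.47 in Ctrl kidneys (SD, n = 4 each) with overlap (exact permutation test, two-sided, p = 0.114, adjusted p = 0.191). Gamma over beta averaged 0.689 ± 0.0912 in YAP and 0.633 ± 0.0446 in Ctrl kidneys (SD, n = 4 each), also with overlap (exact permutation test, two-sided, p = 0.371, adjusted p = 0.464). Male Ctrl replicate 1, with the lowest Scnn1a, had the highest beta over alpha of all libraries. Without that library the log2 difference of beta over alpha was -0.39, against -0.54 with it.

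**Figure D2:**
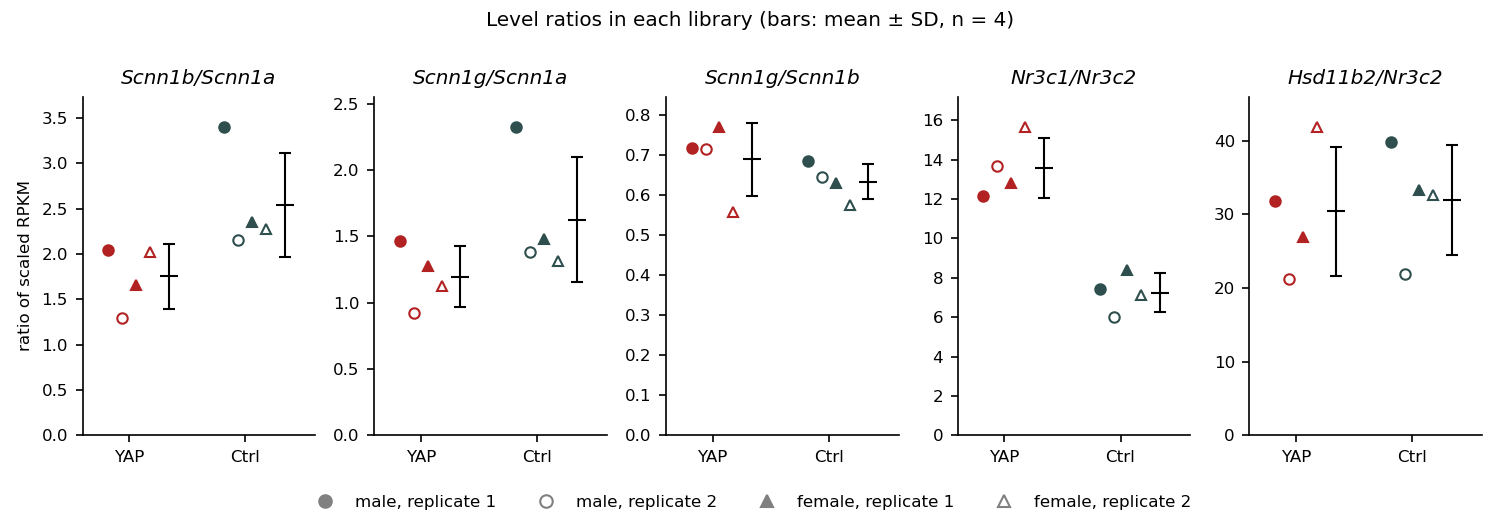
Ratios of scaled RPKM between pairs of genes (y axes, from 0) in each of the 4 YAP and 4 Ctrl libraries, with symbols by sex and replicate; bars are mean ± SD. Scnn1b/Scnn1a is lower and Nr3c1/Nr3c2 higher in every YAP library than in every Ctrl library, and the other 3 ratios overlap.

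Prss8, the prostasin gene (chromosome 7, 127925717 to 127930149), had the highest level of the 10 genes. It stood at 76.2, 65.2, 73.6 and 69.3 scaled RPKM in YAP kidneys and at 96.6, 92.5, 101.5 and 90.8 in Ctrl kidneys, with no overlap. The log2 difference was -0.43 with a standard error of 0.08 (limma, adjusted p = 0.00484), and it was -0.40 within the replicate 1 and -0.45 within the replicate 2 libraries. Exons of Prss8 overlap exons of Kat8 on the other strand, and the strand setting of the counting is not given in the sources used here. Kat8 averaged 12.2 ± 0.412 in YAP and 11.8 ± 1.14 scaled RPKM in Ctrl kidneys (SD, n = 4 each; limma, adjusted p = 0.662).

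Nedd4l, the ubiquitin ligase gene on chromosome 18, had 4.36, 5.41, 4.32 and 3.67 scaled RPKM in YAP kidneys and 3.17, 3.75, 3.27 and 3.65 in Ctrl kidneys. Female YAP replicate 2 lay inside the Ctrl range and the other 3 YAP libraries above it. The ratio was 1.27 with a 95% interval of 1.05 to 1.53, and the adjusted p of 0.0652 missed the threshold (limma). It passed with voom on the recovered reads (adjusted p = 0.0379) and without female YAP replicate 2 (0.0459). The GENCODE annotation places an antisense gene, A330084C13Rik, on the opposite strand at this locus. That gene was not analysed here, and the strand setting is not given in the sources used here.

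Sgk1, the kinase gene, lies on chromosome 10 (21882184 to 21999903). Its level was 17.9, 27.6, 25.5 and 17.5 scaled RPKM in YAP kidneys and 18.7, 19.5, 21.6 and 20.2 in Ctrl kidneys. The Ctrl libraries lay close together, while 2 YAP libraries were above all of them and 2 below all of them. The SD was 5.17 in YAP and 1.23 in Ctrl kidneys (n = 4 each). The ratio of YAP to Ctrl was 1.084 with a 95% interval of 0.844 to 1.39 (limma, adjusted p = 0.651). Tsc22d3, on the X chromosome (140539528 to 140600522), encodes a leucine zipper protein induced by glucocorticoids in many cells. It stood at 6.88, 8.38, 8.48 and 6.40 scaled RPKM in YAP and 8.10, 7.22, 7.68 and 7.89 in Ctrl kidneys. Its ratio was 0.970 with an interval of 0.817 to 1.15 (limma, adjusted p = 0.812), and again 2 YAP libraries were above and 2 below the whole Ctrl range.

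The same YAP libraries were high in several of these genes. Male YAP replicate 2 and female YAP replicate 1 were the 2 highest YAP libraries for 7 of the 10 genes, namely Scnn1a, Scnn1b, Scnn1g, Nr3c2, Nr3c1, Sgk1 and Tsc22d3. This order held in 19.0% of all genes tested. Among the corticosteroid-induced genes described below it held in all but Fkbp5, Dusp1 and Ddit4. Pdk4, for example, stood at 17.4 and 14.0 scaled RPKM in these 2 libraries and at 6.06 and 3.76 in the other YAP libraries. For Hsd11b2 male YAP replicate 2 and female YAP replicate 1 were the 2 lowest. They share neither sex nor replicate number, and what else they share was not tested. The pattern was noticed in these values and has no test.

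**Figure D3:**
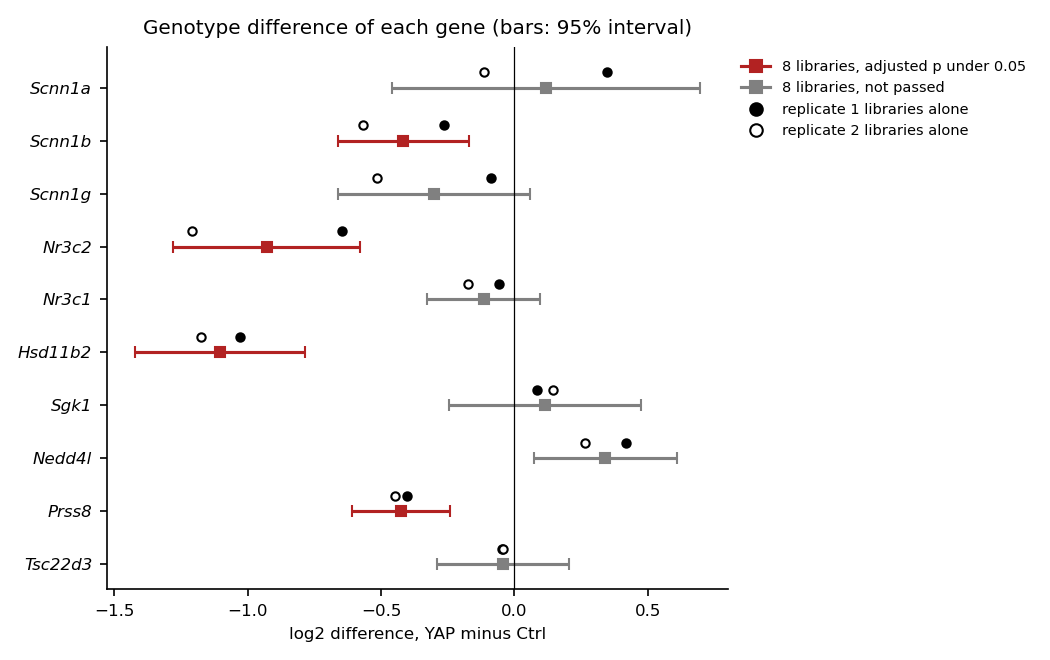
Log2 difference YAP minus Ctrl (x axis) of each gene, as squares with 95% intervals from all 8 libraries, red where past the threshold and grey where not; filled and open circles give the difference within the replicate 1 and the replicate 2 libraries. Hsd11b2 and Nr3c2 lie furthest to the left, at -1.10 and -0.93, and Scnn1a has its circles on either side of 0.

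Hormone-bound mineralocorticoid and glucocorticoid receptors bind the same DNA element, a palindrome. The promoter windows of 5 of the 10 genes (Scnn1b, Scnn1g, Nr3c2, Sgk1 and Tsc22d3; 12 windows of 300 bases, from 250 before to 50 after an annotated start) were matched by symbol in RefSeq, GRCm38.p6. They were searched on both strands for the full element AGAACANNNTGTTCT and for GGAATG, the core bound by the TEAD partners of YAP. Their matches in the windows of these genes did not overlap. The full element was in 0.00913% of all 32851 windows, which is 3 windows, and 1 of those belongs to Sgk1. Of the 12 windows searched 6 are of Sgk1, and its other windows hold neither the full element nor the TEAD core. The TEAD core was in 14.7% of all windows and in 1 of the 12, the same Sgk1 window. A match is a description of letters and not of binding. Windows of Hsd11b2, Scnn1a, Prss8, Nedd4l and Nr3c1 were not used here. The Sgk1 window (chr10:21993640-21993939, plus strand) is shown because it holds both, with the matches in capitals, first the receptor element 189 bases before the start and then the TEAD core on the other strand. The windows of Nr3c2 (chr8:76902080-76902379, plus strand) and Scnn1b (chr7:121864788-121865087, plus strand) are shown because these genes fell, and hold neither set of letters.
Sgk1: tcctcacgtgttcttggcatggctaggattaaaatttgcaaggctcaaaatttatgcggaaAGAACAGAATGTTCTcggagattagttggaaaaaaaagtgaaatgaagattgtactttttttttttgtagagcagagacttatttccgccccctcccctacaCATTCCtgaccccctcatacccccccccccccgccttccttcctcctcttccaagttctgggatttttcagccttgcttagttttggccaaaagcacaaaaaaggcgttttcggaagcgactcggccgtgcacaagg
Nr3c2: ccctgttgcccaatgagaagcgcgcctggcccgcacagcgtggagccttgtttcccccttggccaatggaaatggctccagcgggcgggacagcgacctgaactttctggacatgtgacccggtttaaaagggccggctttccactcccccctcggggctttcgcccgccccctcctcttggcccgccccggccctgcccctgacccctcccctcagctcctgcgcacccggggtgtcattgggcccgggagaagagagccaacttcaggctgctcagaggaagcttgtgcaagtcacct
Scnn1b: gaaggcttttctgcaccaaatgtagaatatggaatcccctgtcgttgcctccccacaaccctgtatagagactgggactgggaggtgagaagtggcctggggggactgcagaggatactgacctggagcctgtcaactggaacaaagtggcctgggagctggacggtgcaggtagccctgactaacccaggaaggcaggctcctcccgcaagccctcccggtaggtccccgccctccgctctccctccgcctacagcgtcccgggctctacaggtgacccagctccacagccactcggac

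Ordered by level per length, Prss8 was highest and Nr3c2 lowest in both genotypes, and only the places of Hsd11b2, Scnn1b and Sgk1 differed. In YAP kidneys Scnn1b, Sgk1 and Hsd11b2 followed Prss8, at means of 22.3, 22.1 and 20.1 scaled RPKM, and their ranges overlapped. Scnn1g (15.5), Scnn1a (13.3), Nr3c1 (9.10) and Tsc22d3 (7.54) came next, each overlapping its neighbour. In Ctrl kidneys Hsd11b2 was in place 2, at 43.0 scaled RPKM, with no overlap with Prss8 above it or with Scnn1b (29.7) below it. Sgk1 (20.02) and Scnn1g (18.7) overlapped each other, as did Scnn1a (12.1) and Nr3c1 (9.89), while Scnn1g and Scnn1a did not. Nedd4l and Nr3c2 were apart from their neighbours in both genotypes. The deposited gene length, which sets levels per length, was 19014 bases for Nedd4l and 1849 for Hsd11b2.

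Within each sex the log2 difference of Hsd11b2 was -1.06 in females and -1.15 in males. That of Nr3c2 was -0.98 in females and -0.88 in males, and that of Prss8 was -0.43 in females and -0.42 in males. With 2 libraries a group, Hsd11b2 and Nr3c2 passed in each sex, where 11.7% of all genes passed in females and 15.3% in males. Prss8 passed in neither (limma, adjusted p = 0.0658 in females and 0.0581 in males), nor did Scnn1b, at -0.54 in females and -0.29 in males. The largest gap was in Scnn1a, at -0.20 in females and 0.44 in males, and its interaction of -0.65 had a 95% interval of -1.77 to 0.48. No interaction of genotype and sex passed for any of the 10 genes (limma, adjusted p of 0.949 or above, and 0 of them with an unadjusted p under 0.05). Over all genes 0 interactions passed with limma and 0 with voom, and 538 and 565 had an unadjusted p under 0.05.

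Of 8 proteases and protease inhibitors of channel processing, 4 rose, 1 fell and 3 did not pass, with a median log2 difference of 0.35. Plau, the urokinase gene, averaged 443 ± 46.0 scaled RPKM in YAP and 142 ± 8.03 in Ctrl kidneys (SD, n = 4 each), a log2 difference of 1.63 (limma, adjusted p = 8.97e-06). St14, which encodes the membrane protease matriptase, rose by a log2 of 0.81, Tmprss4 by 1.00 at a level below 1 scaled RPKM, and the inhibitor Spint2 by 0.45. Tmprss2 fell by 0.31 on the log2 scale. Tmprss4 did not pass within the replicate 1 libraries (adjusted p = 0.126), nor Tmprss2 within either set (0.0995 and 0.12). Furin, a protease that cleaves the alpha and gamma subunits, stood at 23.2 ± 2.29 in YAP and 22.7 ± 3.30 scaled RPKM in Ctrl kidneys (SD, n = 4 each; limma, adjusted p = 0.863).

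Of 15 genes of the ubiquitin and kinase arm, 3 fell, 0 rose and 12 did not pass, with a median of -0.04. The share that passed, 20%, was below the 26.2% of all genes tested. With male Ctrl replicate 1 left out 5 fell and 1 rose, and without male YAP replicate 2 the number that fell was 4. With each of the other 6 libraries left out in turn 2 fell. Sgk2, a paralog of Sgk1, fell by 1.99 on the log2 scale, to 2.47 ± 0.436 scaled RPKM in YAP against 10.1 ± 1.55 in Ctrl kidneys (SD, n = 4 each; limma, adjusted p = 3.67e-05). Wnk4, a kinase of distal salt transport, fell by 1.02 and Wnk1 by 0.58. The call of Wnk1 (adjusted p = 0.0232) was lost without any of 6 libraries, all but male YAP replicate 2 and male Ctrl replicate 1, and within the replicate 1 libraries (0.0893). Another paralog, Sgk3, was at 7.99 ± 0.183 in YAP and 8.07 ± 0.600 scaled RPKM in Ctrl kidneys (SD, n = 4 each), and the ligase Nedd4 at 199 ± 13.6 in YAP and 204 ± 31.9 in Ctrl kidneys (SD, n = 4 each). Neither passed (limma, adjusted p = 0.931 and 0.926). Usp2, a deubiquitinase of the channel, was at a log2 of -0.39 and missed the threshold (adjusted p = 0.0531).

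In corticosteroid metabolism Hsd11b1, which regenerates active glucocorticoid and so works opposite to Hsd11b2, was higher in YAP kidneys. It averaged 6.19 ± 1.33 scaled RPKM in YAP and 2.98 ± 0.764 in Ctrl kidneys (SD, n = 4 each), a log2 difference of 1.04 (limma, adjusted p = 0.00599). The call of Hsd11b1 was lost in males alone (log2 0.84, limma, adjusted p = 0.0984). H6pd, which supplies its cofactor, was at 0.53 and did not pass (adjusted p = 0.0858). Of 8 genes of this metabolism and of receptor chaperones 2 rose, 0 fell and 6 did not pass, with a median of 0.17. The share that passed, 25%, was close to the 26.2% of all genes tested. The other that rose was the chaperone gene Hsp90aa1 (log2 0.73), a call lost in females alone (limma, adjusted p = 0.0520).

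Genes that corticosteroids induce in other settings went both ways. Of 14, 4 rose, 3 fell and 7 did not pass, with a median of 0.49. With 1 library left out 4 to 6 rose and 1 to 3 fell. The number that rose was 6 without female YAP replicate 2, and the number that fell was 1 without male YAP replicate 1. Edn1, the endothelin 1 gene, rose by a log2 of 3.36, to 12.8 ± 1.93 scaled RPKM in YAP against 1.15 ± 0.135 in Ctrl kidneys (SD, n = 4 each). Dusp1 rose by 1.17, Cebpd by 0.95 and Errfi1 by 0.85. Cebpd did not pass in females alone (limma, adjusted p = 0.0562). The metallothionein genes Mt1 and Mt2 fell by 1.12 and 0.88, and Ndrg2 by 0.64. None of these 3 passed in males alone or in females alone (limma, adjusted p = 0.0844 and 0.105 for Mt1). Mt2 lost its call without male YAP replicate 1 (adjusted p = 0.0507), and Ndrg2 without male Ctrl replicate 2 (0.0618), female Ctrl replicate 1 (0.0761), female YAP replicate 2 (0.0716) or male YAP replicate 1 (0.0819). The clock gene Per1, the chaperone gene Fkbp5 and Klf9 were at 0.53, 0.45 and -0.10 and did not pass (limma, adjusted p = 0.186, 0.0552 and 0.718).

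Transporters that work beside the channel were mostly lower. Of 10 genes of distal sodium and potassium transport, 9 fell and 1 did not pass, with a median of -0.99. Slc12a3, the sodium chloride cotransporter gene at whose locus Cre is placed in both genotypes, fell by 3.27 on the log2 scale. Slc26a4, the pendrin gene of intercalated cells, fell by 2.57, and the basolateral potassium channel gene Kcnj10 by 1.37. Kcnma1, which did not pass, was at 0.211 ± 0.0409 in YAP and 0.206 ± 0.0403 scaled RPKM in Ctrl kidneys (SD, n = 4 each; limma, adjusted p = 0.928).

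**Figure D4:**
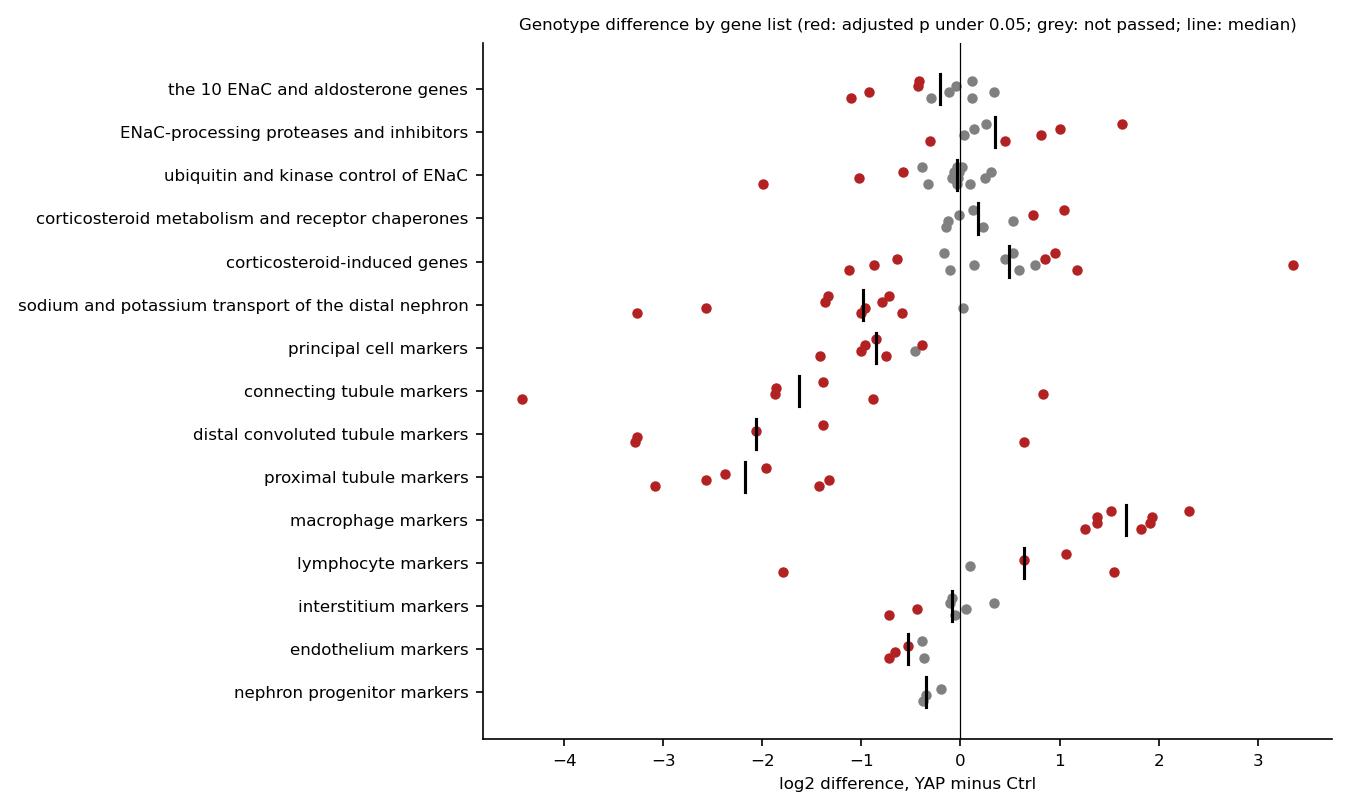
Log2 difference YAP minus Ctrl (x axis) of every tested gene of each list (rows), red where past the threshold and grey where not, with a line at the list's median. The 10 channel and aldosterone genes spread around -0.21, the distal transport genes around -0.99, and the macrophage markers lie above 0.

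Cell markers moved in the same libraries. Of 7 principal cell markers 6 fell and 0 rose, with a median of -0.86, and their summed level was 170 to 363 scaled RPKM in YAP and 392 to 532 in Ctrl kidneys. Aqp4 fell by 1.42 and Fxyd4 by 1.01 on the log2 scale, while Aqp2, the vasopressin-regulated water channel gene, was at -0.46 and did not pass (adjusted p = 0.257). Aqp2 made up most of the summed level, at means of 220 scaled RPKM in YAP and 286 in Ctrl kidneys, and its libraries overlapped. Of 6 connecting tubule markers 5 fell and 1, the calcium channel gene Trpv5, rose (sums of 391 to 851 in YAP and 1255 to 2035 in Ctrl kidneys). S100g made up most of these sums, at means of 577 scaled RPKM in YAP and 1475 in Ctrl kidneys. Kl was at -1.87 and Klk1 at -4.43. Klk1 moved to -3.70 without female YAP replicate 2, to -5.12 without female YAP replicate 1 and to -5.05 without male YAP replicate 1. In YAP kidneys Klk1 stood at 9.84 and 10.6 scaled RPKM in the replicate 1 libraries, and at 1.15 and 0.817 in the replicate 2 libraries. It did not pass in males alone or in females alone (limma, adjusted p = 0.101 and 0.102). Of 5 distal convoluted tubule markers 4 fell and 1, the magnesium channel gene Trpm6, rose (sums of 12.7 to 22.8 in YAP and 56.7 to 87.7 in Ctrl kidneys), with Pvalb at -3.28, a call lost within the replicate 1 libraries (adjusted p = 0.426). Trpm6 was low, at means of 0.820 in YAP and 0.495 scaled RPKM in Ctrl kidneys. Its log2 difference was 0.81 within the replicate 1 libraries and 0.48 within the replicate 2 libraries, where its call was lost. Its call was also lost in females alone (limma, adjusted p = 0.223), as were those of Gata3, Trpv5, S100g, Klk1, Pvalb and Egf. In males alone the calls of Aqp3, Gata3, S100g, Slc8a1, Klk1 and Egf were lost. No marker of these 3 lists was at 0 in any library. In bulk RNA, fewer cells of a type and less RNA per cell cannot be told apart, and the part of cell composition in the falls of Hsd11b2, Nr3c2, Scnn1b and Prss8 was not tested.

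Markers of other cells were counted in the same way. All 6 proximal tubule markers fell, with Miox at -3.08 and Slc5a2 at -2.57 (sums of 189 to 283 in YAP and 1317 to 1436 in Ctrl kidneys). All 8 macrophage markers rose, with Lyz2 at 2.31 and C1qa at 1.93 (sums of 276 to 332 in YAP and 65.7 to 85.9 in Ctrl kidneys). Of 5 lymphocyte markers tested 3 rose (2 without female or male YAP replicate 2) and 1 fell, with Cd3g at 1.55 and Cd8a at -1.79. Both were low. Means of Cd3g were 0.904 scaled RPKM in YAP and 0.246 in Ctrl kidneys, and those of Cd8a 0.0791 and 0.574. Cd8a had 5 to 28 reads per YAP library, and its call was lost in males alone (limma, adjusted p = 0.0603). Cd3e was at 0 in at least 1 library. Of 5 endothelial markers 3 fell and 0 rose, with Tek at -0.72 and Emcn at -0.66. Of 7 interstitial markers 2 fell and 0 rose, with Dcn at -0.72 and Col3a1 at -0.44. The call of Dcn was lost within the replicate 2 libraries (adjusted p = 0.0928), and that of Col3a1 was lost without female YAP replicate 1 (adjusted p = 0.115), male YAP replicate 1 (0.124), male Ctrl replicate 2 (0.112), female Ctrl replicate 1 (0.0597) or female Ctrl replicate 2 (0.0905). Of 3 nephron progenitor markers 0 passed (limma). Sgk1, Nr3c1 and Tsc22d3 are made by many of these cell types, and the part of each in their levels was not tested.

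Genes most like the channel subunits and Hsd11b2 over the 8 libraries were looked up by Pearson's r of log2 levels among 12934 other genes with a mean of at least 1 scaled RPKM. For Hsd11b2 they were Nadsyn1 (r = 0.992), C1rl (0.983) and Acss2 (0.981). Scnn1b was closest to Pygl (0.986), Zfp629 (0.983) and Fam83g (0.971), and Scnn1g to Rassf10 (0.969), Slc25a32 (0.968) and Slc6a12 (0.958). For Scnn1a they were Epb41l1 (0.976), Pdpk1 (0.962), which encodes the kinase that activates Sgk1, and Kdm2a (0.956). The genotype difference was left in these levels, so a gene that differs alike between genotypes ranks high. Hsd11b2 averaged 20.1 in YAP and 43.0 in Ctrl kidneys, and Nadsyn1 2.39 and 3.78 scaled RPKM. Each gene named is among the highest of 12934, and how high r runs by chance over 8 libraries was not computed. All genes of a library share its preparation and depth, and these values are descriptions with no test.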

How the data were processed

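Poly(A) RNA of whole kidneys was sequenced, per the labels' protocols. Reads were aligned with STAR to mm10 and counted with featureCounts, per the submitters' processing notes, without versions. The gene annotation, the strand setting and the handling of multimapped reads were not stated there. The authors deposited RPKM with a gene length per gene. In each library RPKM times length moved in equal steps, 1 per read, so reads and totals were worked back for all 179720 nonzero values (tolerance 0.01 reads).

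Genes were tested where at least 2 libraries reached 0.2 CPM and the total was 15 reads or more. RPKM was divided by trimmed-mean-of-M-values factors (0.969 to 1.03, trims 0.3 and 0.05). Its log2 after adding 0.1 entered limma 3.58.1 (R 4.3.3; trend and robust options), with genotype and sex, or with 4 group means for the interaction and for each sex. The pseudocount of 0.1 understates the change of low genes. The deeper replicate 1 libraries give the smaller counting error. Same-group libraries were not duplicates of each other (chi-square of 22.6 to 51.2 per degree of freedom). The genes, lists and tests were chosen with earlier results of these data known. Genes named from the lists are the 3 largest rises and falls past the threshold of each pathway list and the 2 largest of each marker list, and others were named after their values were seen.

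Alternatives were other pseudocounts, no filter, other scalings, voom, a replicate block, no trend, each replicate number or sex alone, and each library left out.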

Additional observations from a re-analysis of the deposited data

Results flagged for a closer look

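Of 96 sets of 4 libraries of a genotype (the 10 genes, the 33 genes named from the lists and the 5 ratios), 4 had a library far from the other 3, where chance gives about 1 in 20. In male Ctrl replicate 1 the ratio of Scnn1b to Scnn1a was 3.40, against 2.15 to 2.35 in the other Ctrl libraries, and that of Scnn1g to Scnn1a was 2.32, against 1.31 to 1.48. St14 was at 20.7 scaled RPKM in the same library, against 23.2 to 23.5 in the other Ctrl libraries. Mt1 was at 396 scaled RPKM in female Ctrl replicate 1, against 276 to 293 in the other Ctrl libraries.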

How the results depend on the processing

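Over 20 alternatives, 190 of 200 values of the 10 genes kept their side of the threshold, 8 lost a call and 2 gained one, and no called gene changed sign. The genes lower in YAP kidneys numbered 3 to 4 with 1 library left out, and the 1 higher was Nedd4l (0 to 1). Calls over all genes, 4738 of 18059, ran from 3598 to 4819 with 1 library left out. In females alone 2105 genes passed, 2 of the 10 lower, and in males alone 2767, also 2 of the 10, each with 2 libraries a group. With voom 5029 passed, with 1 of the 10 higher. The interaction gave 0 calls, and 1 with a pseudocount of 1, 1 with the replicate block and 0 to 1 with a library left out (1 without male YAP replicate 1, male YAP replicate 2 or male Ctrl replicate 1). The log2 ratio of Nr3c1 to Nr3c2 differed by 0.91, by 0.66 in the replicate 1 libraries and by 1.16 in the replicate 2 libraries, and the cause was not tested. With a pseudocount of 1, close to the level of Nr3c2 itself, that ratio differed by 0.40 (adjusted p = 0.0714) and the log2 ratio of Hsd11b2 to Nr3c2 by -0.56 (adjusted p = 0.0952), against -0.08 (0.771) without one, by exact permutation tests.

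The replicate numbers are not stated to pair samples. Deviations of same-numbered libraries correlated at up to 0.378, with 1 of 6 pairs under 0. With the replicate block 5470 genes passed and the same number of the 10, 4, fell. Leaving out 1 library gave log2 differences of the ratios from -0.62 to -0.39 for Scnn1b/Scnn1a, -0.53 to -0.24 for Scnn1g/Scnn1a, 0.06 to 0.21 for Scnn1g/Scnn1b, 0.82 to 0.98 for Nr3c1/Nr3c2 and -0.25 to 0.08 for Hsd11b2/Nr3c2. Of 660 values of the 33 named list genes, 47 lost their call and 0 changed sign. Depth limits Nr3c2 most, with 70 reads in its lowest library.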
